A study of Mus musculus with 9 samples.

Results

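Cells detect foreign or misplaced RNA and DNA with a small set of sensor proteins, and 8 mouse genes of this system were followed here: Ddx58, Ifih1, Dhx58, Ddx60, Zbp1, Eif2ak2, Tlr3 and Mavs. They were chosen by symbol for their role and selected on their log2 values in the groups below, which were already known, and are 8 of the 19937 genes that could be named. Each was read by a single probe set carrying its symbol alone. The arrays held 3 groups of 3 cultures of MC3T3-E1 subclone 4, a clonal mouse preosteoblast line from calvaria. The first, shRunx2 day 9, had been infected with a lentivirus expressing a short hairpin RNA against Runx2, a transcription factor needed for osteoblast formation, and then kept in osteogenic medium with ascorbic acid and beta-glycerophosphate for 9 days. The second, Scr day 9, carried a scrambled hairpin and was differentiated in the same way, and the third, Scr day 0, carried the scrambled hairpin and was harvested while proliferating. All 3 groups had therefore been infected with a hairpin virus and sorted for green fluorescent protein, and no uninfected cells and no shRunx2 cells at day 0 were among the samples. Loss of Runx2 went together with its hairpin, so effects of the hairpin or virus itself cannot be told apart from it here. The study asked which genes depend on Runx2 during osteoblast differentiation, and since Runx2 is not analysed here, the knockdown behind the shRunx2 values was not checked on these arrays.

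RIG-I (Ddx58) and MDA5 (Ifih1) are cytosolic helicases that bind double-stranded or 5′-triphosphate RNA and then engage MAVS, an adaptor on the outer mitochondrial membrane, from which kinases activate IRF3, IRF7 and NF-kappaB and switch on type I interferon genes. LGP2 (Dhx58) is a helicase of the same family that lacks the signalling domains and tunes the other receptors. TLR3 recognises double-stranded RNA in endosomes, PKR (Eif2ak2) binds it in the cytosol and phosphorylates eIF2 alpha to stop translation, and ZBP1 senses Z-form nucleic acid and can start cell death. Secreted interferon acts back through STAT and IRF9 complexes on interferon-stimulated response elements (ISREs), and many sensor genes are themselves interferon-stimulated.

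Promoter windows of the sensor genes were searched for short motifs, and a link between matches and the array values was not tested. RefSeq promoter sequences (GRCm38.p6, 250 bases before to 50 bases after the annotated start) were found for 6 of the 8 genes: Ddx58, Ifih1, Ddx60, Eif2ak2, Tlr3 and Mavs. An ISRE core, written here as GAAANNGAAA and searched on both strands, occurred in 4 of the 6, against 3.44% of 32851 mouse promoters in the same table. The matches are in capitals in the stretches below, each given 5′ to 3′ on the strand of its gene. Positions count from the annotated start, and the genome coordinates are those of the whole stretch shown, not of the match alone. The match of Ddx58 lies on the opposite strand and so reads TTTCGATTTC, at bases +3 to +12 (chr4:40239804-40239833, minus strand). Ifih1 held its match at +33 to +42 (chr2:62646206-62646235, minus strand) and Eif2ak2 at +19 to +28 (chr17:78882535-78882564, minus strand). Ddx60 had a pair of matches, at -53 to -44 and -19 to -10, with the same 10 letters in each (chr8:61928007-61928086, plus strand).
Ddx58: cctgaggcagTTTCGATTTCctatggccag
Ifih1: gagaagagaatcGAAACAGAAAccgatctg
Eif2ak2: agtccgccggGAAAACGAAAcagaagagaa
Ddx60: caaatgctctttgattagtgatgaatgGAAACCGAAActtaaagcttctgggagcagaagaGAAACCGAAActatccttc

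The 2 other motifs searched were rarer in this set. The GAS core TTCNNNGAA, a form of the element bound by STAT dimers after interferon gamma, was found in 1 of the 6 promoters, that of Eif2ak2, at -178 to -170 (chr17:78882731-78882760, minus strand), and in 8.3% of all promoters. It is shown in capitals, in a stretch that spans these genome coordinates, to set it beside the ISRE core of the same gene. The Runx core TGTGGT was found in 0 of the 6 promoters and in 16.76% of all promoters. In Tlr3 and Mavs none of the 3 motifs occurred in this window. These are letter matches only, and binding was not measured on these arrays.
Eif2ak2: ctgcagagctTTCCCAGAAtggaagccagg

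**Figure D1:**
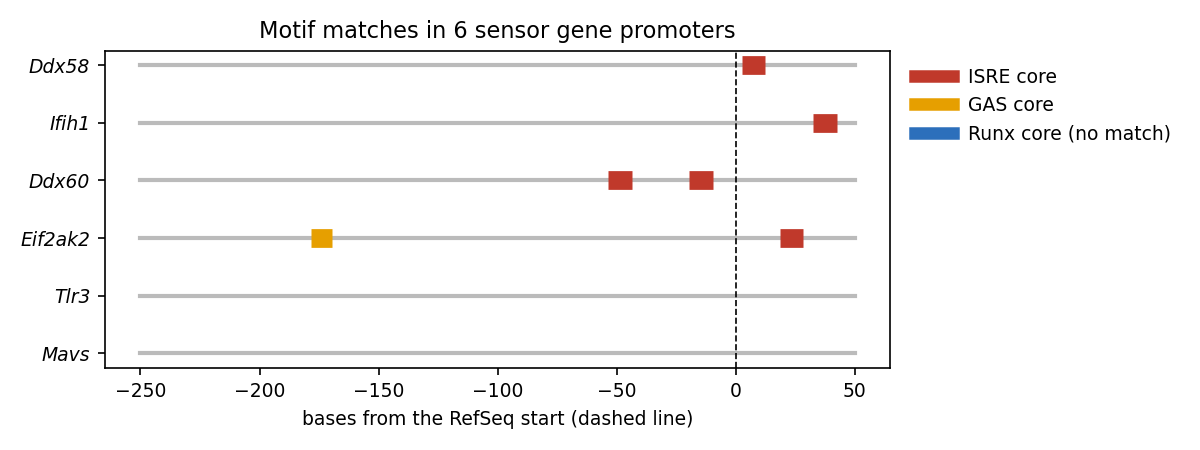
Positions of motif matches along the promoters of 6 sensor genes, in bases from the RefSeq start, with 1 grey line per gene spanning 250 bases before to 50 bases after the start. ISRE cores lie close to the start in Ddx58, Ifih1, Ddx60 and Eif2ak2, the single GAS core lies upstream in Eif2ak2, and no Runx core was matched.

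In shRunx2 cells at day 9, 7 of the 8 sensor genes were higher than in Scr cells at day 9, and the adaptor gene Mavs was not called. All 7 rose at an adjusted p under 0.05 in the limma fit across all genes, in which 2.73% of the 19937 genes rose and 4.66% fell. At 1.5-fold or more, 4 rose (Ifih1, Dhx58, Ddx60 and Zbp1), against 0.396% of all genes. In each of the 7 the lowest shRunx2 array lay above the highest Scr day 9 array, a separation that 8.34% of all genes showed. The genes were listed with this contrast known, so the counts describe them and test nothing. The median log2 change was 0.67 over the 8 genes and -0.0041 over all genes. In bulk RNA a change in the number of cells expressing a gene and a change in RNA per cell cannot be told apart.

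During differentiation of Scr cells the picture was split. Comparing day 9 with day 0, 6 sensor genes rose (Ifih1, Dhx58, Ddx60, Zbp1, Eif2ak2 and Tlr3), where 14.5% of all genes rose. Ddx58 fell, as did 17.1% of all genes, and Mavs was not called. Ifih1, Dhx58 and Ddx60 rose by 1.5-fold or more, which 2.89% of all genes did. Every Scr day 9 array was above every Scr day 0 array for the 6 genes that rose, a separation seen in 18.1% of all genes. The median log2 change was 0.39 over the 8 genes and -0.016 over all genes. This comparison and the one above use the same Scr day 9 arrays, so an error in those arrays enters both with opposite sign, and the values below are given side by side for each gene.

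**Figure D2:**
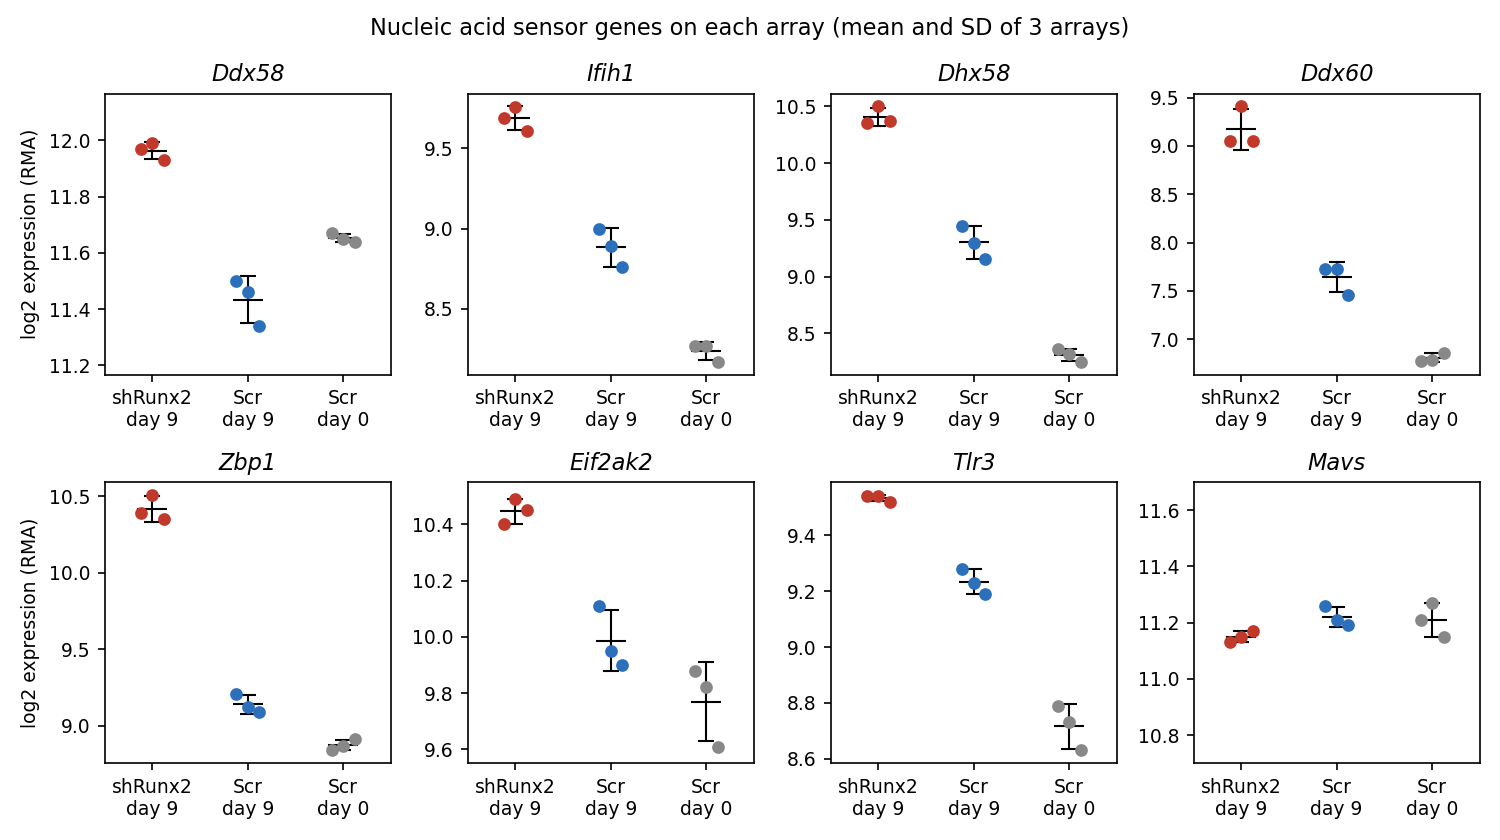
Log2 expression (RMA) of the 8 sensor genes on each of 9 arrays, for shRunx2 day 9, Scr day 9 and Scr day 0, with the mean and SD of 3 arrays. Dhx58, Ddx60 and Ifih1 are highest in shRunx2 day 9, lower in Scr day 9 and lowest in Scr day 0, in Ddx58 Scr day 9 is the lowest group, and in Mavs the 3 groups lie within 0.14 of one another.

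Ddx58 encodes RIG-I, the receptor for short double-stranded and 5′-triphosphate RNA. Its log2 expression was 11.97, 11.99 and 11.93 in shRunx2 cells at day 9, 11.50, 11.46 and 11.34 in Scr cells at day 9 and 11.67, 11.65 and 11.64 in Scr cells at day 0. No array of one group overlapped another, and Scr day 9 was the lowest group, not the middle one. The log2 change was 0.53 ± 0.044 (SE, n = 3 each) between shRunx2 and Scr cells at day 9, which is 1.44-fold. In Scr cells it fell by 0.22 ± 0.044 on the log2 scale between day 9 and day 0, the only decrease called among the 8 genes.

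Ifih1 encodes MDA5, which prefers long double-stranded RNA. It read 9.69, 9.76 and 9.61 on the shRunx2 day 9 arrays, 9.00, 8.89 and 8.76 on the Scr day 9 arrays and 8.27, 8.27 and 8.17 on the Scr day 0 arrays. The groups stood apart, and the lowest shRunx2 array exceeded the highest Scr day 9 array by 0.61. The difference was 1.75-fold between shRunx2 and Scr cells at day 9 (log2 change 0.81 ± 0.061) and 1.56-fold between Scr day 9 and Scr day 0 (0.64 ± 0.061). RIG-I and MDA5 share the adaptor MAVS, and their genes moved in opposite directions in Scr cells between day 9 and day 0.

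Dhx58 encodes LGP2, the family member without signalling domains. Its values were 10.35, 10.50 and 10.37 in shRunx2 cells at day 9, 9.45, 9.30 and 9.16 in Scr cells at day 9 and 8.36, 8.32 and 8.25 in Scr cells at day 0. The 3 groups formed separate steps of similar height. The change was 2.15-fold for shRunx2 against Scr cells at day 9 (log2 1.10 ± 0.069) and 1.99-fold for Scr day 9 against Scr day 0 (log2 0.99 ± 0.069). The means of shRunx2 day 9 and Scr day 0 differed by 2.09, or 4.27-fold.

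Ddx60 encodes a DExD/H-box helicase that was described in human cells as a cofactor of RIG-I signalling, and it is the gene whose promoter holds the pair of ISRE cores shown above. Ddx60 measured 9.05, 9.41 and 9.05 in shRunx2 cells at day 9, 7.73, 7.73 and 7.46 in Scr cells at day 9 and 6.78, 6.79 and 6.86 in Scr cells at day 0. The second shRunx2 array was the highest and the third Scr day 9 array was low for its group, and still the gap between those groups was 1.31. Of the 8 genes it changed most on the log2 scale between shRunx2 and Scr cells at day 9, by 1.53 ± 0.098, with a 95% interval of 1.31 to 1.74, or 2.88-fold. Between Scr day 9 and Scr day 0 it rose 1.78-fold (log2 0.83 ± 0.098), which brought the difference of shRunx2 day 9 from Scr day 0 to 5.12-fold. The Ddx60 means of 7.64 in Scr day 9 and 6.81 in Scr day 0 lay below the array medians of 8.42 to 8.51. Weak signal cannot be told from background here, so the size of these fold changes is uncertain.

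Zbp1 encodes the sensor of Z-form nucleic acid. On the shRunx2 day 9 arrays it read 10.39, 10.51 and 10.35, on the Scr day 9 arrays 9.21, 9.12 and 9.09 and on the Scr day 0 arrays 8.84, 8.87 and 8.91. Most of its range lay between the knockdown and control cells of day 9, where the groups were 1.14 apart at their nearest arrays. The change was 2.43-fold between shRunx2 and Scr cells at day 9 (log2 1.28 ± 0.050) and 1.2-fold between Scr day 9 and Scr day 0 (log2 0.26 ± 0.050).

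Eif2ak2 encodes PKR, the kinase that halts translation when it binds double-stranded RNA. Its values were 10.40, 10.49 and 10.45 in shRunx2 cells at day 9, 10.11, 9.95 and 9.90 in Scr cells at day 9 and 9.88, 9.82 and 9.61 in Scr cells at day 0. shRunx2 arrays lay clear of both control groups, whereas the lowest Scr day 9 array was only 0.0162 above the highest Scr day 0 array. The log2 change was 0.46 ± 0.072 (1.38-fold) between shRunx2 and Scr cells at day 9. Between Scr day 9 and Scr day 0 it was 0.21 ± 0.072 (1.16-fold), with an adjusted p of 0.0418 in the limma fit. That call held in 8 of 18 alternative settings (adjusted p between 0.0142 and 0.162). It was lost without Scr day 0 replicate 2 (0.0591) or 3 (0.155), without Scr day 9 replicate 1 (0.162) or 2 (0.0708), and without shRunx2 day 9 replicate 1 (0.056), 2 (0.0568) or 3 (0.0603).

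Tlr3 encodes the endosomal receptor for double-stranded RNA, which signals through TRIF (Ticam1) and not through MAVS. It measured 9.54, 9.54 and 9.52 in shRunx2 cells at day 9, 9.28, 9.23 and 9.19 in Scr cells at day 9 and 8.79, 8.73 and 8.63 in Scr cells at day 0. The shRunx2 arrays were nearly level with each other (SD 0.0092) and above all controls. Tlr3 changed least of the 7 genes that rose in shRunx2 cells, by 0.30 ± 0.046 (1.23-fold), and by 0.52 ± 0.046 (1.43-fold) in Scr cells at day 9 against day 0.

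Mavs, the adaptor through which both RIG-I and MDA5 signal, read 11.13, 11.15 and 11.17 in shRunx2 cells at day 9, 11.26, 11.21 and 11.19 in Scr cells at day 9 and 11.21, 11.27 and 11.15 in Scr cells at day 0. All shRunx2 arrays were below the Scr day 9 arrays, by 0.0184 at the nearest, and the Scr groups overlapped. The log2 change was -0.07 ± 0.040 between shRunx2 and Scr cells at day 9, with a 95% interval of -0.158 to 0.0198. Between Scr day 9 and Scr day 0 it was 0.01 ± 0.040 (interval -0.0791 to 0.0992), and its sign turned in 4 of the alternatives. A missed threshold does not show equal levels, but a change of 1.5-fold lies outside both intervals.

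**Figure D3:**
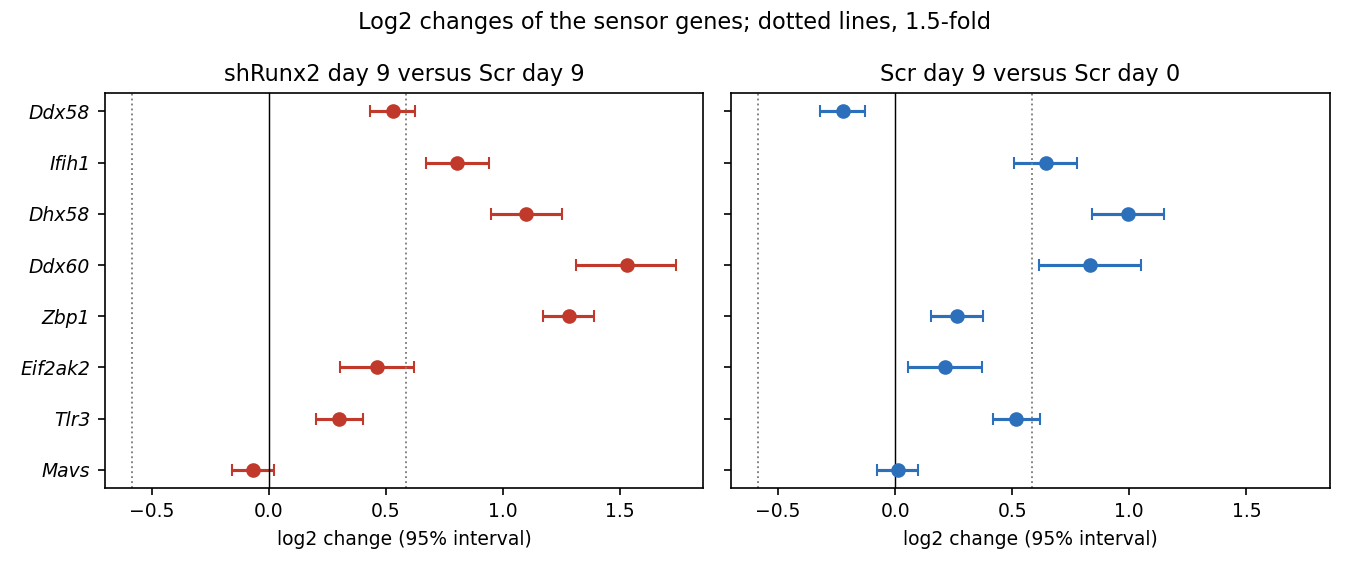
Log2 change of each sensor gene with its 95% interval, for shRunx2 day 9 against Scr day 9 on the left and Scr day 9 against Scr day 0 on the right, with dotted lines at 1.5-fold. Ddx60, Zbp1 and Dhx58 lie furthest to the right on the left side, Ddx58 turns negative on the right side, and Mavs spans 0 on both.

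Along the 9 arrays the sensor genes differed in how closely they ran with one another. Ifih1 and Dhx58 had a Pearson correlation of 0.998, and Ifih1 and Ddx60 one of 0.99. Ddx58 ran less closely with the others that rose in shRunx2 cells, between 0.447 (Tlr3) and 0.819 (Zbp1), and Mavs was negative with all of them, between -0.631 and -0.382. These figures describe 9 arrays in 3 groups and mostly restate the group means. Within the Scr day 9 group, replicate 1 was the highest array for all 8 genes (Ddx60 tied with replicate 2), which was so for 40% of all genes, and replicate 3 was the lowest for all 8, which was so for 37.9% of all genes. In the shRunx2 group replicate 2 was the highest array for 6 of the 8, and for 48.4% of all genes.

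The genes with the pattern most like that of the 3 sensors with the widest range were sought by Pearson correlation over the 9 arrays among 1158 genes with an SD of at least 0.3. For Ddx60 they were Bst2 (0.998), Oas2 (0.9948) and Usp18 (0.9941), for Dhx58 Ifit1 (0.999), Oasl2 (0.9986) and Rtp4 (0.9979), and for Zbp1 Gm12250 (0.995), Cxcl10 (0.9921) and Irf7 (0.991). Bst2 (tetherin), Oas2, Usp18, Ifit1, Oasl2, Rtp4, Cxcl10 and Irf7 are known interferon-stimulated genes. By Euclidean distance between group means, each centred on its own mean, the nearest genes were others in part: BC023105 (0.11), Gbp7 (0.12) and Rtp4 (0.19) for Ddx60, Oasl2 (0.014), Atp1b1 (0.095) and Gbp3 (0.17) for Dhx58, and Irf7 (0.057), Cxcl10 (0.1) and Slfn2 (0.16) for Zbp1. Atp1b1 encodes a subunit of the sodium pump. With shRunx2 against Scr cells at day 9, Oas2, an enzyme family member activated by double-stranded RNA, differed by 1.92 ± 0.13 on the log2 scale. Ifit1, which binds the 5′ end of foreign RNA, differed by 1.70 ± 0.095. Between Scr day 9 and Scr day 0 the differences were 1.19 ± 0.13 for Oas2 and 1.62 ± 0.095 for Ifit1.

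Lists of genes that work with the sensors, written from their textbook roles, held 167 genes, of which 150 were measured. In shRunx2 against Scr cells at day 9, 20 rose, 10 fell and 120 did not pass, where 2.73% of all genes rose and 4.66% fell. Their median log2 change was -0.023, and that of all genes -0.0041. In Scr cells at day 9 against day 0, 21 rose, 40 fell and 89 did not pass, where 14.5% of all genes rose and 17.1% fell. In the comparison of shRunx2 with Scr cells, 12 of the 20 that rose passed in every alternative setting in which they were tested: Adar, Ccl2, Ccl5, Cxcl9, Cxcl10, Ifi203, Irf7, Irf9, Stat2, Sting1, Usp18 and Zc3hav1. Of the 10 that fell, Atf4, Eif2ak3 and Ywhae did so. In Scr cells at day 9 against day 0, 17 of the 21 that rose and 32 of the 40 that fell passed in every alternative. The exceptions were Prkra, Irf3, Irf7 and Casp1 among those that rose and Zc3hav1, Ticam1, Rnf125, Atg5, Hsp90b1, Ppp1r15a, Trex1 and Cxcl2 among those that fell. Removal of 1 array moved these counts: without shRunx2 day 9 replicate 2, 13 rose and 4 fell, and 4, 5 and 5 fell without Scr day 9 replicate 1, Scr day 9 replicate 2 and shRunx2 day 9 replicate 1.

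**Figure D4:**
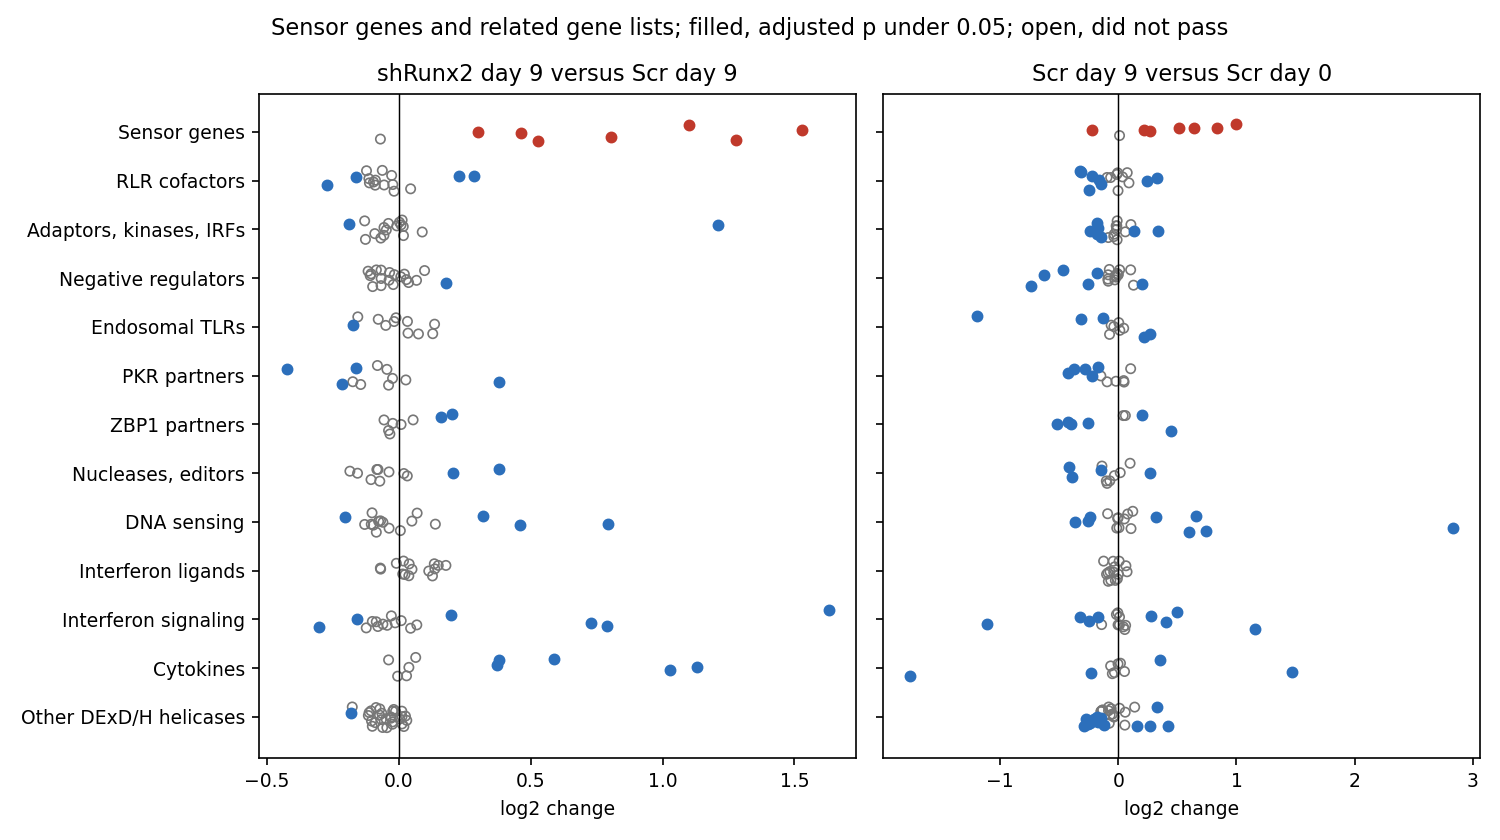
Log2 changes of the sensor genes (top row, called genes in red) and of the genes in 12 related lists, 1 circle per gene, for shRunx2 day 9 against Scr day 9 and for Scr day 9 against Scr day 0. Filled circles passed an adjusted p of 0.05 in the limma fit, and most circles outside the sensor row are open on the left and lie near 0.

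Immediate helpers of the RIG-I-like receptors changed between -0.272 and 0.287 on the log2 scale in shRunx2 against Scr cells at day 9. Of 16 measured cofactors and activators, 2 rose (Trim25 and Zc3hav1), 2 fell (Ppp1cc and Ywhae) and 12 did not pass. Among all genes 2.73% rose and 4.66% fell. The call of Ppp1cc (limma adjusted p = 0.0313) held in 9 of 18 alternatives. It was lost with the mean of its probe sets (0.196) and without any 1 array of day 9. Zc3hav1 encodes ZAP, an antiviral RNA-binding protein, and rose by 0.29 ± 0.046 on the log2 scale (adjusted p = 0.00298, limma). Trim25, a ubiquitin ligase of the RIG-I pathway, averaged 10.41 ± 0.030 in shRunx2 and 10.18 ± 0.11 in Scr cells at day 9 (SD, n = 3 each). Its call (adjusted p = 0.0251, limma) held in 11 of 18 alternatives, with adjusted p between 0.00142 and 0.0933, and was lost without any 1 shRunx2 array or without Scr day 9 replicate 2 or 3. Rnf135 (Riplet), the other ligase of RIG-I, changed by 0.05 ± 0.055 with a limma adjusted p of 0.725. With differentiation of Scr cells (day 9 against day 0), Rnf135 and Prkra rose, 6 cofactors fell and 8 did not pass. The shares of all genes there were 14.5% that rose and 17.1% that fell. The call of Prkra was lost without any 1 Scr day 0 array.

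Among 17 measured adaptors, kinases and transcription factors downstream of the sensors, Irf7 stood apart. Over all genes, 2.73% rose and 4.66% fell in shRunx2 against Scr cells at day 9. In Scr cells at day 9 against day 0, 14.5% of all genes rose and 17.1% fell. Irf7, the factor that amplifies type I interferon genes, read 10.16, 10.43 and 10.05 in shRunx2 cells and 9.11, 9.09 and 8.80 in Scr cells at day 9. It rose 2.32-fold (log2 1.21 ± 0.099, limma adjusted p = 2.38e-05), and its groups did not overlap. Irf3, which is activated first in this pathway and is made without induction, fell by 0.19 ± 0.044 (limma adjusted p = 0.0266), a call that was lost without Scr day 9 replicate 1 (0.0706), shRunx2 day 9 replicate 1 (0.108) or shRunx2 day 9 replicate 2 (0.0822). The other 15 did not pass, and these include Ticam1, the adaptor of TLR3, at -0.13 ± 0.050, and the kinase genes Tbk1 at -0.07 ± 0.048 and Ikbke at -0.0073 ± 0.041. In Scr cells at day 9 against day 0, Irf7 rose by 0.33 ± 0.099 (limma adjusted p = 0.0234), which did not hold without Scr day 0 replicate 1 (0.0908), Scr day 9 replicate 1 (0.0975) or Scr day 9 replicate 2 (0.091). Irf3 also rose there and 5 genes fell, Ticam1 among them (-0.15 ± 0.050), with the calls of Irf3 and Ticam1 each held in 10 of 18 alternatives.

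Interferon genes themselves were not called in either comparison. Of 15 measured type I, II and III interferon genes, 0 rose and 0 fell in the limma fit in both comparisons. Among all genes, 2.73% rose and 4.66% fell in shRunx2 against Scr cells at day 9. In Scr cells at day 9 against day 0, 14.5% of all genes rose and 17.1% fell. At an unadjusted p under 0.05 (limma), 3 interferon genes were higher and 0 lower in shRunx2 than in Scr cells at day 9. Of the 19937 genes, 1431 were higher and 2471 lower. In Scr cells at day 9 against day 0, 0 interferon genes were higher and 1 lower, against 3495 and 4209 of all genes. Ifnb1, the interferon most directly induced by these sensors, averaged 7.21 ± 0.035 in shRunx2 cells at day 9, 7.16 ± 0.089 in Scr cells at day 9 and 7.22 ± 0.11 in Scr cells at day 0 (SD, n = 3 each). Its log2 change was 0.05 ± 0.060 for shRunx2 against Scr cells (limma adjusted p = 0.718) and -0.06 ± 0.060 for Scr day 9 against Scr day 0 (limma adjusted p = 0.496). The Ifnb1 means lay below the array medians of 8.42 to 8.51. Weak signal cannot be told from background here, so missing calls do not show that interferon genes were unchanged.

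Downstream of the interferon receptor, genes of the response complex rose in shRunx2 cells. Of 17 measured receptors and transducers, 4 rose (Usp18, Irf9, Stat2 and Ifngr2), 2 fell (Jak1 and Socs3) and 11 did not pass. Among all genes 2.73% rose and 4.66% fell. The call of Jak1 held in 8 of 18 alternatives and that of Socs3 in 16 of 18. Socs3 was not called with the mean of its probe sets (log2 change -0.102, limma adjusted p = 0.339) or with every probe set tested (limma adjusted p = 0.0515). Stat2 read 10.97, 11.09 and 11.03 in shRunx2 cells and 10.39, 10.34 and 10.17 in Scr cells at day 9, a 1.66-fold rise (limma adjusted p = 1.31e-05). Its partner Irf9 read 10.58, 10.70 and 10.60 in shRunx2 and 9.91, 9.88 and 9.72 in Scr cells at day 9, a 1.73-fold rise (limma adjusted p = 8.5e-06). For neither gene did the groups overlap. Usp18, which restrains interferon receptor signalling, rose 3.09-fold (limma adjusted p = 8.86e-06). The receptor genes Ifnar1 and Ifnar2 did not pass, with log2 changes of -0.12 ± 0.044 and 0.01 ± 0.036. In Scr cells at day 9 against day 0, Usp18 rose 2.23-fold, Irf9 1.21-fold, and Ifngr2 and Jak1 also rose. Stat2 did not pass there (0.06 ± 0.056), Socs3 fell by 1.11 ± 0.060, and Ifnar1, Jak2 and Ptpn11 fell too. Beside them, 14.5% of all genes rose and 17.1% fell in that comparison.

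Cytokine genes that viral RNA commonly induces moved with the sensors in part. Of 10 measured, 5 rose in shRunx2 against Scr cells at day 9 (Cxcl10, Ccl5, Cxcl9, Ccl2 and Il6) and 5 did not pass. Among all genes 2.73% rose in that comparison. Cxcl10, a T cell attractant, rose 2.19-fold (limma adjusted p = 2.41e-06), Ccl5 2.05-fold (2.85e-06) and Cxcl9 by 0.59 ± 0.043 on the log2 scale (1.1e-05). The rise of Il6, 0.37 ± 0.095, held in 6 of 17 alternatives and its groups overlapped. Between Scr cells of day 9 and day 0, Ccl5 rose 2.77-fold and Cxcl10 1.27-fold, whereas Il6 fell 3.38-fold and Cxcl2 also fell. There 14.5% of all genes rose and 17.1% fell.

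Partners of the individual sensors were listed separately. Over all genes, 2.73% rose and 4.66% fell in shRunx2 against Scr cells at day 9. In Scr cells at day 9 against day 0, 14.5% of all genes rose and 17.1% fell. For PKR, 11 related genes were measured, and in shRunx2 against Scr cells at day 9 Adar rose while Eif2ak3, Atf4 and Ppp1r15b fell. The call of Ppp1r15b (limma adjusted p = 0.0305) held in 11 of 18 alternatives and was lost with the mean of its probe sets (0.296). Adar, the enzyme that edits double-stranded RNA and so limits its detection, rose by 0.38 ± 0.048 (limma adjusted p = 0.000548), and Eif2ak3 (PERK), another eIF2 alpha kinase, fell by 0.42 ± 0.043 (limma adjusted p = 0.000101). At day 9 against day 0 in Scr cells, 5 of the 11 fell (Tarbp2, Ppp1r15a, Ppp1r15b, Atf4 and Ddit3) and 6 did not pass. For ZBP1, 8 cell death genes were measured, of which Ripk3 and Mlkl, the kinase and executioner of necroptosis, rose by 0.16 ± 0.042 and 0.20 ± 0.054. Their limma adjusted p values were 0.0435 and 0.0466, and the calls held in 7 and 9 of 18 alternatives, with leaving out of most single arrays, such as Scr day 9 replicate 2 (0.163 and 0.14) or shRunx2 day 9 replicate 2 (0.14 and 0.15), ending both. Both fell at day 9 against day 0 in Scr cells, Ripk3 by 0.40 ± 0.042 and Mlkl by 0.43 ± 0.054, with Casp6 and Casp8, while Cflar and Casp1 rose. The call of Casp1 held in 10 of 17 alternatives and was lost without Scr day 9 replicate 1 or 2 or Scr day 0 replicate 2 or 3. Near TLR3, 11 endosomal receptor and chaperone genes were measured, and the receptors Tlr7 (0.13 ± 0.047) and Tlr9 (0.03 ± 0.036) and the chaperone Unc93b1 (-0.01 ± 0.039) did not pass in shRunx2 against Scr cells. Lgmn, an endosomal protease that processes these receptors, fell by 0.18 ± 0.047 there, a call held in 6 of 18 alternatives (limma adjusted p between 0.0146 and 0.162), and fell 2.29-fold in Scr cells at day 9 against day 0, where Cd14 and Hsp90b1 also fell and Cnpy3 and Irak1 rose. Of 11 nucleases and editors that remove immune-stimulating nucleic acid, Samhd1 rose beside Adar in shRunx2 against Scr cells at day 9, by 0.20 ± 0.049 (held in 11 of 18 alternatives), and 9 did not pass. Samhd1 fell by 0.42 ± 0.049 in Scr cells at day 9 against day 0, as did Trex1 and Rnaseh2a, and Xrn1 rose.

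Genes of cytosolic DNA sensing had their own order. Of 17 measured, Ifi203, Ifi205 and Sting1 rose in shRunx2 against Scr cells at day 9, Xrcc5 fell and 13 did not pass. Among all genes 2.73% rose and 4.66% fell. The call of Ifi205 held in 14 of 17 alternatives. That of Xrcc5 held in 11 of 18 and was lost without any 1 shRunx2 array. Sting1, the membrane adaptor of this pathway, rose by 0.32 ± 0.052 (limma adjusted p = 0.00314), while Cgas, the enzyme that activates it, changed by 0.05 ± 0.065 (limma adjusted p = 0.747). Ifi203, of the family of interferon-inducible DNA-binding proteins, rose 1.73-fold in shRunx2 cells (limma adjusted p = 0.0019). In Scr cells at day 9 against day 0, Ifi203 rose 7.11-fold, Sting1 1.67-fold, Xrcc5 1.58-fold and Zdhhc1 1.52-fold, Prkdc also rose, and Cgas fell by 0.24 ± 0.065 with Mre11a and Lrrfip1. The shares of all genes in that comparison were 14.5% that rose and 17.1% that fell.

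Among 19 measured negative regulators of RNA sensing, Atg12 rose in shRunx2 against Scr cells at day 9 (limma adjusted p = 0.045, held in 9 of 18 alternatives) and 18 did not pass. With differentiation of Scr cells, the ubiquitin ligase genes Smurf1 and Smurf2 fell at day 9 against day 0, by 0.74 ± 0.044 and 0.63 ± 0.042, with Marchf5, Rnf125 (held in 7 of 17 alternatives) and Atg5 (14 of 18), and Usp21 rose. Of 30 measured other RNA helicases with the same DExD/H-box fold, 0 rose in shRunx2 against Scr cells at day 9, where 2.73% of all genes rose. Eif4a3 fell (limma adjusted p = 0.0363, held in 8 of 18 alternatives), where 4.66% of all genes fell. At such shares few calls fall among 30 genes. At an unadjusted p under 0.05 (limma), 0 were higher and 6 lower in shRunx2 than in Scr cells, against 1431 and 2471 of the 19937 genes. The log2 changes of these helicases ran between -0.181 and 0.0307. In Scr cells at day 9 against day 0, 4 of these helicases rose and 10 fell, where 14.5% of all genes rose and 17.1% fell.

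The identity of the cells was checked with marker genes. Over all genes, 2.73% rose and 4.66% fell in shRunx2 against Scr cells at day 9. In Scr cells at day 9 against day 0, 14.5% of all genes rose and 17.1% fell. Of 8 measured osteoblast markers, Phex, Ibsp, Alpl and Sp7 fell in shRunx2 against Scr cells at day 9 and 5 rose in Scr cells at day 9 against day 0. In shRunx2 against Scr cells at day 9 the 8 log2 changes ran from -1.94 to -0.000814, with 3 falls of 1.5-fold or more. The log2 of the markers' summed level ran from 15.45 to 15.47 in shRunx2 day 9, 15.54 to 15.56 in Scr day 9 and 15.30 to 15.40 in Scr day 0 arrays. Such a sum is set mostly by the genes with the highest levels. Several sensors are also abundant in macrophages, so leukocyte markers are given beside them: of 15 measured, Lyz2 rose by 0.42 ± 0.087 and Fcer1g fell by 0.27 ± 0.048 in shRunx2 against Scr cells at day 9, and both rose in Scr cells at day 9 against day 0, by 0.80 ± 0.087 and 0.50 ± 0.048. The call of Lyz2 between shRunx2 and Scr cells (limma adjusted p = 0.0125) was lost without Scr day 9 replicate 2 (0.0583) or 3 (0.0532) and without shRunx2 day 9 replicate 2 (0.0581) or 3 (0.0574). The summed level ran from 11.83 to 11.88 in shRunx2 day 9, 11.81 to 11.83 in Scr day 9 and 11.71 to 11.75 in Scr day 0 arrays. Ptprc, the pan-leukocyte gene, averaged 7.32, 7.33 and 7.25 in the same groups, and Csf1r 7.77, 7.76 and 7.81. Of 8 endothelial markers, Ramp2 rose by 0.36 and Flt1 fell by 0.22 in shRunx2 against Scr cells at day 9, and 2 rose in Scr cells at day 9 against day 0. The part of such cells in the sensor values was not tested.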

How the data were processed

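The authors deposited log2 expression values made with RMA, which corrects background, normalizes quantiles over arrays and summarizes each probe set, from Affymetrix Mouse Gene 1.0 ST arrays hybridized with RNA of 9 cultures. The submitters' processing notes name RMA and limma, the study's methods add the affy package and a filter that is not described, and a genome build for the arrays was not given in the sources used here. Of 34760 probe sets, 21640 had 1 gene symbol, 1321 several and 11799 none. The probe set with the highest mean was kept for 954 genes with several, leaving 19937 genes. Array medians lay between 8.42 and 8.51. Precision is set by the number of arrays, since an array has no sequencing depth. Exactly equal values on arrays of 1 group occurred in 6288 genes.

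Group means of all 9 arrays were compared in 1 limma model (limma 3.58.1, R 4.3.3), with Benjamini-Hochberg adjustment over all genes. A gene rose or fell at an adjusted p under 0.05. The labels call the replicates biological, and p values measure the spread between these cultures. The code was tested on simulated data. Values of different probe sets were not set against each other. The sensor genes, gene lists and tests were chosen with earlier results of these data known. Named were the sensor genes, up to 4 genes of each list and comparison past 1.5-fold, list genes chosen for their role and the closest patterns. Others are named where a count was small, after their values were seen. Some listed genes are not analysed here. Promoters come from a RefSeq table of GRCm38.p6. The alternatives tried were fits of only the compared groups, a replicate block, median centring, further quantile normalization, genes at or above the median level, the mean of a gene's probe sets, every probe set, an intensity trend with robust prior, array weights, and leaving out each array.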

Additional observations from a re-analysis of the deposited data

How the results depend on the processing

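All 143 values of the sensor genes in shRunx2 against Scr cells at day 9 kept their direction and side of the threshold. The log2 change ranged from 1.4 to 1.59 for Ddx60 and from 0.277 to 0.328 for Tlr3. Ddx60 was not tested among genes at or above the median level, where 6 of the sensors still rose. In Scr day 9 against Scr day 0, 129 values held, 10 of Eif2ak2 lost the call, and Mavs turned to -0.0231 with median centring, -0.0212 with array weights and between -0.0218 and 0.0403 without single arrays.

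Of the sensor pathway lists, 20 genes rose and 10 fell in shRunx2 against Scr cells at day 9. With every probe set tested 13 rose and 3 fell, with array weights 18 fell, and leaving out each array gave 13 to 17 that rose and 4 to 10 that fell. Signs of uncalled genes turned in the same comparison for Ikbke (0.0134 with quantile normalization, 3.49e-05 with array weights, -0.0201 to 0.0074 without single arrays), and without single arrays for Ifnb1 (-0.000362 to 0.0833), Ifnar2 (-0.0137 to 0.0312) and Unc93b1 (-0.0362 to 0.0196). In Scr day 9 against Scr day 0 they turned for Ifnar2 (0.0392 with quantile normalization, -0.0259 to 0.019 without single arrays), Trim25 (-0.0212 to 0.087), Tbk1 (-0.0735 to 0.00345), Ikbke (-0.0426 to 0.0215) and Cxcl9 (-0.0268 to 0.0358). The cause was not tested.

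Replicate numbers are shared between groups but were not taken to pair the arrays, since not every same-numbered pair correlated above 0.1: deviations correlated between -0.11 and 0.29 in 9 same-numbered pairs and between -0.29 and 0.12 in 18 others, and an array correlated best with its own number in 9 of 18 comparisons. Between Scr day 9 and Scr day 0 the same-numbered pairs had 0.29, 0.082 and 0.29, and the others -0.29 to 0.11. With a replicate block 7 sensor genes rose in shRunx2 against Scr cells at day 9, and 6 rose and 1 fell in Scr day 9 against Scr day 0. For the pathway lists the replicate block gave 18 that rose and 9 that fell, and 21 that rose and 42 that fell.

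With 3 arrays a group, changes of about 0.2 on the log2 scale lay near the threshold. Weak signal cannot be told from background here, since no detection calls were used.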
